A study of Drosophila melanogaster with 2 samples.

Results

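Of the peaks that passed the authors' reproducibility threshold in chromatin from Drosophila melanogaster embryos carrying GFP-tagged E(spl)m5-HLH, 504 had a summit outside every annotated gene and at most 1000 bp from the start site of a protein-coding gene, and 1983 did not. These intergenic summits close to coding start sites made up 20.3% of the thresholded summits (95% Wilson interval 18.7% to 21.9%) and 58.6% of the 860 intergenic ones. They were chosen by position alone: transposable elements were ignored as genes, and the nearest start site had to be that of a protein-coding gene. A summit was called divergent when it lay between a start site on the minus strand to its left and one on the plus strand to its right, each within 1000 bp, so that the pair of genes is transcribed away from it. By this rule 183 summits, or 36.3% (32.2% to 40.6%), were divergent, and 321 had 1 start site.

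The 2 samples are biological replicates, numbered 3 and 4, of whole embryos of both sexes aged 0 to 12 hours, and both carry E(spl)m5-HLH with GFP at its C terminus. The sources used here do not state the insertion place, the copy number or the promoter of the fusion gene. Chromatin was sonicated to 200 to 800 bp. The antibody label and assay title describe an immunoprecipitation, whereas a free-text note on each sample calls it an input control; the values are given on the first reading, and 1 shared control alignment underlies every list. Whole embryos mix all cell types, so the cells in which a site was occupied cannot be told apart from those in which it was not. No untagged line was used here, and how much signal promoters give without the tagged protein was not tested.

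The tagged protein is one of several basic helix-loop-helix (bHLH) repressors of the Enhancer of split complex, whose genes respond to Notch and limit neural fate. These repressors bind E boxes and N boxes and recruit the corepressor Groucho. In the compact fly genome many genes lie head to head and share one short intergenic stretch. Housekeeping genes of this kind often carry the DNA replication-related element (DRE, TATCGATA), which binds the factor DREF and holds the CGATA bound by the insulator protein BEAF-32, whereas many developmental genes carry GAGA elements, bound by the GAGA factor.

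Windows reaching 100 bp to each side of the summit are printed for 10 summits that carry the patterns described in the following paragraphs, trimmed to the part outside annotated genes. They are on dm6, in RefSeq's sequence of the same assembly, read 5′ to 3′ on the strand of the nearest gene. Capitals mark every copy, on either strand, of 6 words: the E boxes CACGTG and CACGCG of the E(spl) family, the proneural E box CAGCTG, the DRE with its inner word CGATA, and the element GAGAGAG. The first is the strongest divergent summit. The next 3 are divergent summits with a DRE, at genes for ribosomal proteins and a tubulin acetyltransferase. The 5th and the 6th are the strongest summits with TATCGATA and with CGATA. The 7th is the strongest of all, the 8th the strongest with CAGCTG, and the last 2 are summits with 1 start site and a GAGA element.
Ugalt and eIF2Bbeta, chrX:2703853-2703984, minus strand: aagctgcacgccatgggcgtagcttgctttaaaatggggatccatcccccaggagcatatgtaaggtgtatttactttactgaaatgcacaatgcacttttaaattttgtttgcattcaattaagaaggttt
RpL28 and eIF1, chr3L:3222961-3223097, minus strand: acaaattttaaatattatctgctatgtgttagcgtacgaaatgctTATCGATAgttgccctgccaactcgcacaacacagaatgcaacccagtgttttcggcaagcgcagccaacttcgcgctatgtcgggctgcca
RpS25 and CG4820, chr3R:11216288-11216436, minus strand: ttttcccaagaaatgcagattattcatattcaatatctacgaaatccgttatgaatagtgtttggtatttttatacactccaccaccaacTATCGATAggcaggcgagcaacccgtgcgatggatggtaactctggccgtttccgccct
Atat and Shc, chr3L:9426780-9426980, minus strand: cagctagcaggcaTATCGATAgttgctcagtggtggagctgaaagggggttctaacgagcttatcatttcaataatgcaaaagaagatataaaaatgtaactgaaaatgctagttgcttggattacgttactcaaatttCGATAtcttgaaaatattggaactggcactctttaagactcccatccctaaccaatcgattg
eEF1gamma, chr3R:29220060-29220171, plus strand: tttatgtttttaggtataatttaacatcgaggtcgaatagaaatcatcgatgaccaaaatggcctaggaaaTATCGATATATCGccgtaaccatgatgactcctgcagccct
CG14100, chr3L:19590525-19590714, minus strand: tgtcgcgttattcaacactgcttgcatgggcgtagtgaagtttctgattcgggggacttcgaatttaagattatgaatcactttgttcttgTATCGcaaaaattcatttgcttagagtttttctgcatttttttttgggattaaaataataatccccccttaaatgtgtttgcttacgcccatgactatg
E(spl)m7-HLH, chr3R:26036891-26037037, plus strand: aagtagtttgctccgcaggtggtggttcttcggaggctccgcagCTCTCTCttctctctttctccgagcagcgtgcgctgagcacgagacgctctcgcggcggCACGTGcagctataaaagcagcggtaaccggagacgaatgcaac
E(spl)m8-HLH, chr3R:26039978-26040178, plus strand: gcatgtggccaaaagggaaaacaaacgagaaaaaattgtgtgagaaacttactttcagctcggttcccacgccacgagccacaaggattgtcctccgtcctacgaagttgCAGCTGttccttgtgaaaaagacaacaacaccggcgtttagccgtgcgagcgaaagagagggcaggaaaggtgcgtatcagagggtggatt
E(spl)mbeta-HLH, upstream summit, chr3R:26006228-26006428, minus strand: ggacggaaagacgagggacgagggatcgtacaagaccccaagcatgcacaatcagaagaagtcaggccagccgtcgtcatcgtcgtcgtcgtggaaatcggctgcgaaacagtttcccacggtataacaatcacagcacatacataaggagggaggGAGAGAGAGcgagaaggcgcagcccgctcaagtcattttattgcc
tex, chr3R:8308764-8308880, minus strand: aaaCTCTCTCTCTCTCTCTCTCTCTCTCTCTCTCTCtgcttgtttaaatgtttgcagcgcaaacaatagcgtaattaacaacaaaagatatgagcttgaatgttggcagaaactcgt
The Ugalt window held none of the marked motifs although its signal was the highest of the divergent summits. The DRE stood upstream of the summit in the RpL28 window and next to the summit in the RpS25 window. The E(spl)m7-HLH window held CACGTG within 10 bases of its summit and a GAGA element on the other side, and the tex window held an unbroken run of CT repeats.

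Within the 1000 bp that the rule allows, 502 of the 504 summits were upstream of their start site, as a position outside genes nearly always entails. The median distance was 75 bp for divergent summits and 152 bp for summits with 1 start site, and 127 (69.4%) of the divergent ones were within 100 bp, against 122 of the 321 others. The geometry of the annotation limits this comparison, since a summit between close start sites cannot be far from either. The 2 downstream summits lay 819 bp past the start of E(spl)malpha-BFM, a Bearded family gene of the complex, and 851 bp past that of CG31816. Near the limit of the rule, the outermost summits inside it were those at wb, lin-28 and E(spl)m4-BFM, at 942, 967 and 993 bp, and the closest ones outside it were those at RabGGTa, CG43131 and jigr1, at 1021, 1022 and 1025 bp.

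**Figure D1:**
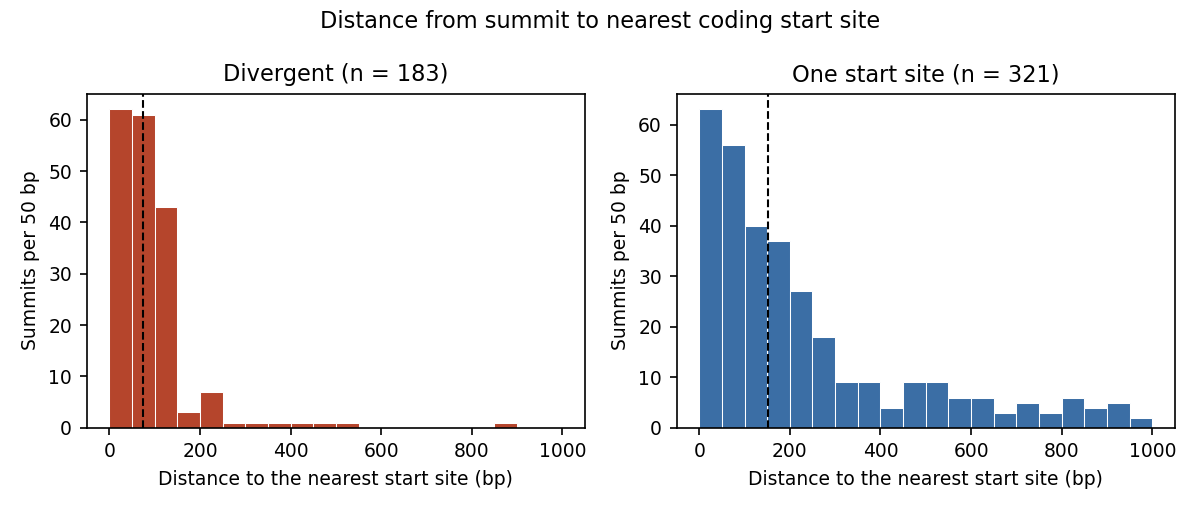
Distance in bp from each summit to its nearest coding start site, in bins of 50 bp, for 183 divergent summits (left) and 321 with 1 start site (right); dashed lines are medians. The divergent summits have a median of 75 bp, against 152 bp for those with 1 start site, whose distances reach 993 bp.

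Divergent start sites that enclosed a summit were 45 to 1886 bp apart, with a median spacing of 302 bp and quartiles of 238 and 522.5 bp. The nearer start site was a median of 75 bp from the summit and the farther one 226 bp. In 127 of the 183 (69.4%, Wilson interval 62.4% to 75.6%), the nearer start site was within 33.3% of the spacing. Positions spread evenly between the start sites would give 66.7%, which lies inside that interval, so no preference for the middle or for one end was detectable. The median pooled signal was 172 for the 62 summits with start sites over 200 and up to 300 bp apart, and it lay between 139 and 153 in the 4 other classes of spacing.

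**Figure D2:**
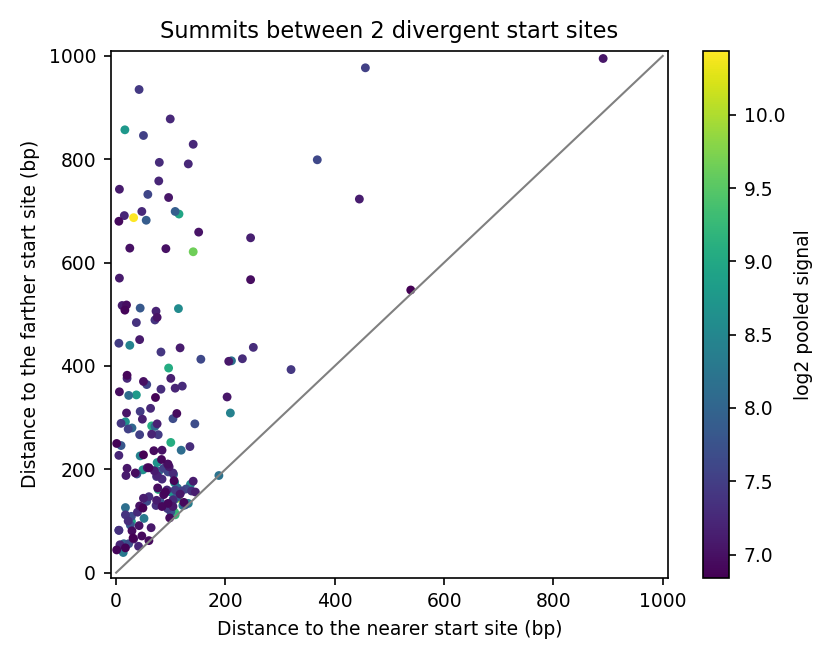
Distance in bp to the nearer (horizontal) and the farther (vertical) start site for the 183 divergent summits, coloured by log2 of the authors' pooled signal; the grey line marks a summit midway between the start sites. Most points lie within 200 bp of the nearer start site, with a median of 75 bp, while the farther one reaches 995 bp; the strongest point is that between Ugalt and eIF2Bbeta.

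The share of divergent summits was set against the annotation. Bases between divergent coding start sites made up 16.2% of all bases that meet the position rule, against 36.3% of the summits. Of 10663 coding start sites with an intergenic stretch in front of them, 36.8% were divergent. Both start sites of a head-to-head pair, and alternative start sites of a gene, can enter that share, whereas each summit counts once. The 36.8% and the 36.3% are thus shares of unlike units. Among 2551 pooled candidate peaks that met the same position rule but not the authors' threshold, 29.2% (27.5% to 31.0%) were divergent. The chromosome arms held 99 summits on 2L, 98 on 2R, 99 on 3L and 146 on 3R, with 57 on X and 5 on chromosome 4, none of these 5 divergent; as shares of the arms' thresholded summits, they ran from 18.4% on X to 23.8% on chromosome 4. The 504 summits fell in 485 intergenic intervals and had 488 different nearest genes, and 15 intervals held more than 1. The fullest was that between E(spl)m5-HLH and E(spl)m6-BFM, with 5 summits of pooled signal 1404, 657, 336, 297 and 122; summits in 1 interval are not independent of each other.

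Signal is the authors' value for each peak relative to the control. The sources used here do not state its scale, and the lists of the pool and of each replicate were scaled separately. The pooled signal had a median of 157 (quartiles 134 and 228) in divergent summits and 161 (136 and 235) in those with 1 start site, which overlap almost wholly; all thresholded summits had a median of 162. Of the 100 strongest thresholded summits, 10 were divergent and 18 had 1 start site. The guanine and cytosine content of the windows was 37.6% ± 7.72 (SD, n = 183 windows) in divergent summits, against 43.8% ± 9.13 (SD, n = 321 windows) in the others.

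Among summits with 1 start site, those of the Enhancer of split complex led. At E(spl)m7-HLH, which encodes a bHLH repressor, the summit 47 bp upstream had 2284 in the pool, with 1048 in replicate 3 and 1253 in replicate 4, rank 1 in every list. That 162 bp upstream of E(spl)m8-HLH, another bHLH repressor gene, had 1507 in the pool, 865 in replicate 3 and 711 in replicate 4. That 935 bp upstream of the tagged gene itself, E(spl)m5-HLH, had 1404 in the pool, 726 in replicate 3 and 684 in replicate 4. These summits were among the 7 strongest candidates of both replicates; 22 of the 504 summits had a nearest gene in the complex, and their median signal was 396, against 157 for the remaining ones. E(spl)mbeta-HLH, also a bHLH repressor gene of the complex, had 1257 in the pool, with 658 in replicate 3 and 617 in replicate 4.

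Among summits with 1 start site outside the complex, CG14100 had the highest signal, 1631 in the pool, 801 in replicate 3 and 833 in replicate 4, at rank 3 in each list. sp3 followed with 855 in the pool, 385 in replicate 3 and 462 in replicate 4. CG18549 had 710 in the pool, 439 in replicate 3 and 286 in replicate 4. These genes are not known members of the Notch pathway, and each summit was among the 79 strongest candidates in both replicates. Other summits with 1 start site among the 20 strongest of all were those at yps, which encodes a cold shock domain RNA-binding protein (660 in the pool), E(spl)m6-BFM, a gene of the complex (657), CG13921 (642), eEF1gamma, a subunit of translation elongation factor 1 (591), Toll-7, a Toll family receptor (589), and Regnase-1, an RNase of mRNA decay (570).

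The 10 strongest divergent summits were all at genes outside the complex. The summit between Ugalt, a UDP-galactose transporter gene, and eIF2Bbeta, a subunit of the exchange factor of eIF2, had 1385 in the pool, 582 in replicate 3 and 801 in replicate 4; it lay 32 bp from the Ugalt start site and 687 bp from that of eIF2Bbeta. The summit between Art3, an arginine methyltransferase gene, and mRpS10, of the small mitochondrial ribosomal subunit, had 994 in the pool, 554 in replicate 3 and 429 in replicate 4, with start sites 257 bp apart. That between mRpL41, of the large mitochondrial subunit, and CG8079 had 803 in the pool, 454 in replicate 3 and 351 in replicate 4. All were among the 40 strongest candidates of both replicates. The pairs that followed were Tcs5, a kinase of the KEOPS tRNA-modifying complex, with CHMP2B, of the ESCRT-III membrane complex (648 in the pool), CIA30, a complex I assembly factor, with CG7601 (605), and CG13390 with CG17294 (544). After these came CG5611 with Mtl (534), RpL13A with Dph4, a diphthamide synthesis gene (532), CenG1A, an Arf GTPase activator, with mRpS23 (532), and CG7841 with Z600, an inhibitor of the embryonic cell cycle (494). CG13390 with CG17294 stood at 352 in replicate 3 and at 186 in replicate 4.

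The replicates placed the divergent summits less alike than the others. A summit was counted in both replicates when, in each replicate, a candidate lay within 100 bp of it and ranked high enough; as many top candidates were taken as there were thresholded peaks. That held for 278 of the 504 (55.2%, Wilson interval 50.8% to 59.4%), near the 58% of all thresholded summits. It held for 84 of 183 divergent summits (45.9%) and for 194 of 321 with 1 start site (60.4%), a difference of -14.5 percentage points (two-sided Fisher's exact p = 0.00208, with summits treated as independent). The difference was -8.94 points (Fisher's exact p = 0.0625) when summits had to match within 50 bp, and -9.49 points (Fisher's exact p = 0.069) among the strongest 50% of the thresholded peaks, so the call rests on those settings. Replicate 3 alone held 147 (80.3%) of the divergent summits among its strongest candidates and 255 (79.4%) of the others; replicate 4 held 115 (62.8%) of the divergent summits and 246 (76.6%) of the others. In the 160 divergent summits with a candidate of both replicates within 100 bp, the median signal was 98.0 in replicate 3 and 74.5 in replicate 4, against 88.1 and 83.8 in 298 summits with 1 start site. As a description across peaks, which share libraries and control, Spearman's rank correlation between the replicates' signals was 0.35 in the divergent summits and 0.48 in the others. The thresholded peaks were those of highest pooled signal, which draws on both replicates. How far that choice alters these correlations was not tested. With 2 samples of 1 group, no test over samples could be made.

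**Figure D3:**
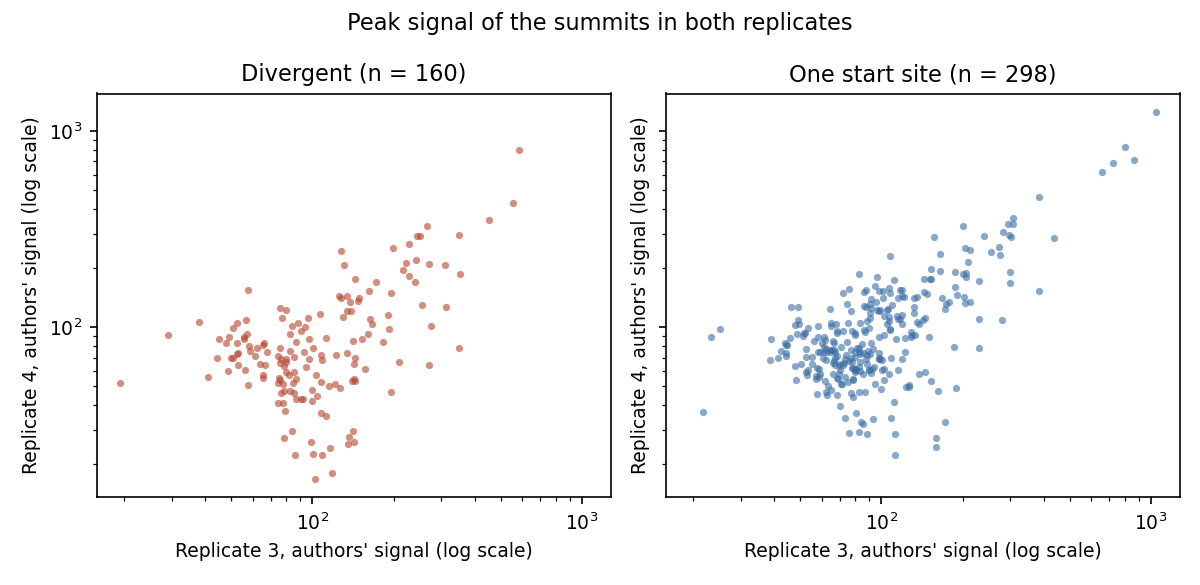
Authors' signal in replicate 3 (horizontal) and replicate 4 (vertical), both on log scales, for summits with a candidate within 100 bp in both replicates; 160 divergent summits are on the left and 298 with 1 start site on the right. Spearman's rank correlation is 0.35 in the left panel and 0.48 in the right, and in the right panel the strongest summits, of the Enhancer of split complex and CG14100, are high in both replicates.

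Motifs were counted on both strands in windows reaching 100 bp to each side of a centre, at the summit and in a flank centred 500 bp away on the side away from the nearest start site. The search covered CACGTG and CACGCG, GGCACGTG and the N box CACNAG for the E(spl) family, the E box CAGCTG of proneural factors, and the Su(H) site YGTGRGAA (Y is C or T, R is A or G). Promoter motifs were the DRE TATCGATA and its part CGATA, Motif 1 (GGTCACACT), the GAGA element GAGAGAG, the Zelda site CAGGTAG, the TATA box TATAAA, the initiator TCAGTY and Ohler motif 6. Other words were the Tramtrack site AGGACC, the word GCGCGC, and 6 control hexamers with the composition of CACGTG, named here with the restriction enzyme that cuts each: CCATGG (NcoI), GGATCC (BamHI), GCATGC (SphI), GTCGAC (SalI), ACCGGT (AgeI) and GAGCTC (SacI). CGATA lies inside TATCGATA and CACGTG inside GGCACGTG, so these overlap. Of the 22 motifs, 7 (31.8%) differed between summit and flank by the exact McNemar test with Benjamini-Hochberg adjustment at 0.05, 6 of them higher at the summit, and none of the 6 controls did. The control GCATGC was in 26 summit windows, against 14 flanks (exact McNemar adjusted p = 0.178). Its ratio of 1.86 was near that of CAGCTG, 1.88, which passed with larger counts.

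The E(spl) family E box CACGTG was in 39 summit windows (7.74%), against 13 flanks (2.58%; exact McNemar adjusted p = 0.00119). GGCACGTG was in 10 summit windows, against 1 flank (exact adjusted p = 0.0368). CAGCTG, the site of proneural bHLH activators, was in 81 summit windows (16.1%), against 43 flanks (8.53%; exact adjusted p = 0.00119). CACGCG, at 6.94% of summits against 3.97% of flanks, and CACNAG, at 26.8% against 22.0%, did not pass (exact adjusted p = 0.147 and 0.201). In all, 271 of the 504 windows held neither CAGCTG nor any of the E(spl) family motifs. The signal of summits with CACGTG, of median 159, overlapped that of summits without it, of median 158.

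Promoter elements also differed between summit and flank. The DRE was in 38 summit windows (7.54%), against 4 flanks (0.794%; exact McNemar adjusted p = 1.24e-06), CGATA was in 179 (35.5%), against 111 (22.0%; exact adjusted p = 3.53e-05), and GAGAGAG was in 46 (9.13%), against 11 (2.18%; exact adjusted p = 3.53e-05). AGGACC was less frequent, in 5 summit windows, against 28 flanks (exact adjusted p = 0.000364). The flank often left the promoter: its centre lay inside an annotated gene for 149 (81.4%) of the divergent summits and 94 (29.3%) of the others. In the summits whose flank centre lay outside genes, an alternative chosen after seeing the data, 4 motifs differed. The E box CACGTG passed there, as did CAGCTG and also GAGAGAG, and the N box CACNAG gained a call with 10.3 points more at the summit (exact adjusted p = 0.0305), while the DRE, CGATA and AGGACC did not (exact adjusted p = 0.0569, 0.56 and 0.217). There 243 of the 504 summits were left out, and the differences were smaller as well: 3.83 points for the DRE, in place of 6.75 in the full set, 3.83 for CGATA, in place of 13.5, and -2.68 for AGGACC, in place of -4.56. Those left out were 149 of the 183 divergent summits and 94 of the 321 others. In all divergent summits the DRE was in 12.6% of windows, against 1.64% of flanks, and CACNAG in 24.0%, against 27.3%. With 1 start site the shares were 4.67%, against 0.312%, and 28.3%, against 19.0%. The change of flank thus cannot be told apart from the change in the kinds of summit. In the full set an excess at the summit cannot be told apart from a difference between intergenic and genic sequence. GGCACGTG lost its call there too (exact adjusted p = 0.0764), and in 6 of the other alternatives, among them start sites within 500 bp and the shorter windows (both at an exact adjusted p of 0.123), the strongest 50% of peaks (0.0982) and replicate 3 alone (0.0591). CAGCTG lost its call with the flank on the side of the start site (exact adjusted p = 0.229) and among the strongest 50% of peaks (exact adjusted p = 0.0643).

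Over all hexamers, each taken with its reverse complement, 100 (4.81%) differed between summit and flank, 42 higher and 58 lower at the summit. Those with the highest ratios were ATAGGC (ratio 4.00), CCTAGC (4.00), CGATAG (3.91), CGCTAG (3.78) and CCGCTA (3.55). CGATAG, which extends CGATA, was in 86 summit windows (17.1%), against 22 flanks (4.37%; exact McNemar adjusted p = 1.28e-07). Those with the lowest ratios were CAGGAC (ratio 0.158), CCAGGA (0.167), AGGACC (0.179), CTCCTC (0.200) and AGGTCC (0.212), of which CTCCTC was in 13 summit windows, against 65 flanks (exact adjusted p = 9.42e-07).

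The 2 kinds of summit differed in promoter elements, while the difference in share passed for none of the E(spl) family motifs. Of the 22 motifs, 3 (13.6%) differed between them. The DRE was in 23 of 183 divergent windows (12.6%), against 15 of 321 windows with 1 start site (4.67%), a difference of 7.90 points (Fisher's exact adjusted p = 0.0263). CGATA was in 80 (43.7%), against 99 (30.8%; Fisher's exact adjusted p = 0.0361). GAGAGAG was in 3 (1.64%), against 43 (13.4%), a difference of -11.8 points (Fisher's exact adjusted p = 3.58e-05). CACGTG was in 15 divergent windows (8.20%), against 24 with 1 start site (7.48%), with overlapping intervals of 5.03% to 13.1% and 5.08% to 10.9% (Fisher's exact adjusted p = 0.949). In windows of 50 bp to each side, CACGTG differed by -3.66 points (Fisher's exact adjusted p = 0.205). CACGCG was in 7 divergent windows (3.83%), against 28 (8.72%), and GGCACGTG in 1, against 9 (Fisher's exact adjusted p = 0.139 and 0.281). Without the 22 summits of the Enhancer of split complex, an alternative chosen after seeing the data, GAGAGAG alone passed, with the DRE at 7.64 points (Fisher's exact adjusted p = 0.051) and CGATA at 12.3 points (Fisher's exact adjusted p = 0.0606). The calls of both were also lost with start sites within 500 bp, at 7.04 points for the DRE and 8.90 points for CGATA (Fisher's exact adjusted p = 0.177 and 0.221). That of CGATA was lost with 1 summit per interval too, at 11.5 points (Fisher's exact adjusted p = 0.0821).

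The shares at the summits were set beside those in all coding promoters, taken as windows centred 100 bp upstream of 10663 start sites with intergenic sequence there. The DRE was in 12.6% of divergent summit windows and 11.8% of divergent promoter windows, and in 4.67% of summit windows with 1 start site and 5.45% of the other promoter windows. CGATA was in 43.7% of divergent summit windows and 49.6% of divergent promoter windows. For the rest its shares were 30.8% at the summits and 33.3% in the promoter windows. GAGAGAG was in 1.64% of divergent summit windows and 2.78% of divergent promoter windows, and in 13.4% of summit windows with 1 start site and 6.58% of the other promoter windows. CACGTG was in 8.20% of divergent summit windows and 1.94% of divergent promoter windows, and in 7.48% of summit windows with 1 start site and 2.24% of the other promoter windows. CAGCTG was in 15.3% against 11.3% for divergent windows, and in 16.5% against 10.9% for the rest. The Wilson intervals of summit and promoter windows overlapped for the DRE and CGATA in both kinds, and did not overlap for CACGTG in either. For GAGAGAG and CAGCTG they overlapped in the divergent kind and did not in the other. Close start sites gave overlapping promoter windows that were counted as separate, so the promoter intervals are narrower than independent windows would warrant. A match is a run of letters, not a measured binding site.

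**Figure D4:**
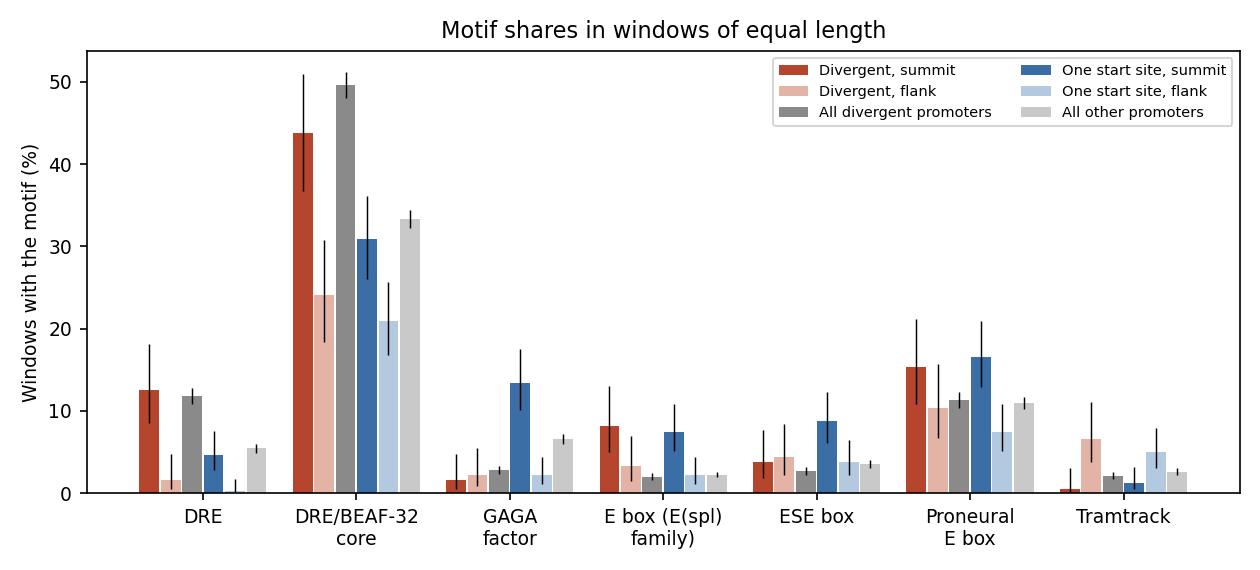
Share of windows of equal length that hold each of 7 motifs, in percent, at divergent summits, their flanks and all divergent coding promoters (red, light red, grey), and at summits with 1 start site, their flanks and all other coding promoters (blue, light blue, light grey); error bars are 95% Wilson intervals. The DRE follows the kind of promoter (12.6% against 4.67% at the summits), GAGAGAG stands out at summits with 1 start site (13.4%), and CACGTG is near 8% at both kinds of summit.

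The motifs lay across the window rather than at 1 fixed point. Of 41 copies of the DRE within the summit windows, 21 were within 50 bp of the summit, at a median distance of 42.5 bp. Of 40 copies of CACGTG, 20 were within 50 bp, at a median of 48 bp, and of 92 copies of CAGCTG, 54 were, at a median of 41.5 bp. The 4 bins of 50 bp that surround the summit held 10, 10, 11 and 10 copies of the DRE. For CACGTG they held 9, 11, 9 and 11, with 3, 1, 2 and 9 at divergent summits and 6, 10, 7 and 2 at the others. The last of these bins is the one towards the start site. Copies of CACGTG were not confined to the summit windows. Towards the start site, the bins from 100 to 300 bp held 12, 4, 10 and 9 copies of CACGTG. On the other side, those from -300 to -100 bp held 0, 5, 0 and 5. CAGCTG had 12, 24, 30 and 26 copies around the summit, and 26 and 24 in the bins from -200 to -100 bp. Overlapping copies in GAGA repeats such as that at tex were counted one by one, and they numbered 116. Few windows combined the elements: 1 held both the DRE and GAGAGAG, 4 the DRE and CACGTG, and 6 GAGAGAG and CACGTG.

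**Figure D5:**
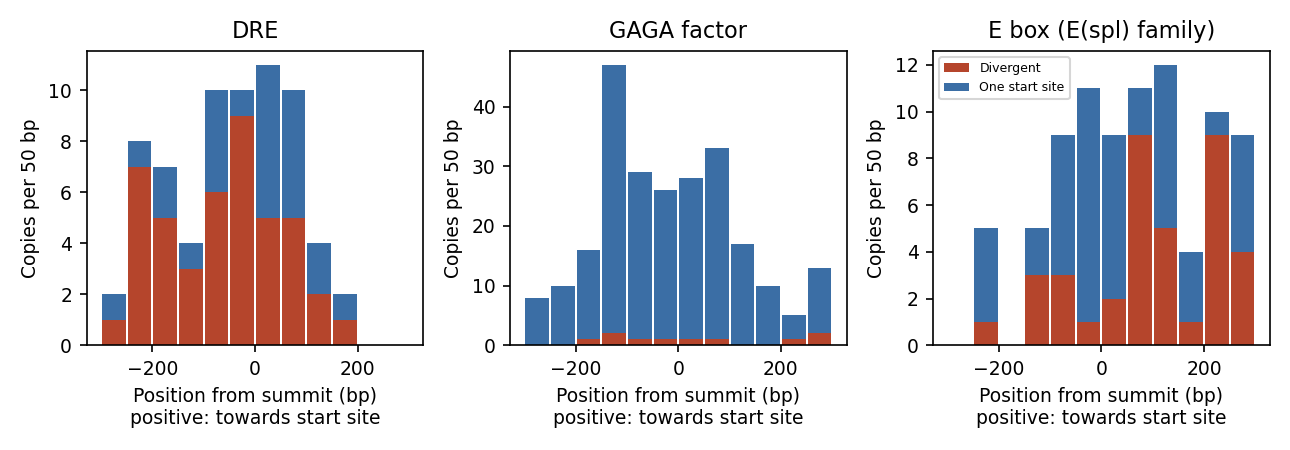
Copies of the DRE, GAGAGAG and CACGTG per bin of 50 bp against distance in bp from the summit, positive towards the nearest start site, stacked for divergent summits (red) and summits with 1 start site (blue). DRE copies, mostly divergent, number 10, 10, 11 and 10 in the 4 bins around the summit, and GAGAGAG copies are nearly all at summits with 1 start site, some in long repeats.

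Against the most alike class, the 393 thresholded summits in 5′ UTRs, 4 of 22 motifs (18.2%) differed. CACGCG was in 6.94% of the intergenic windows, against 16.3% of the 5′ UTR windows (Fisher's exact adjusted p = 0.000303). TATAAA was in 29.4%, against 18.6% (Fisher's exact adjusted p = 0.00171), the initiator was in 17.1%, against 27.7% (Fisher's exact adjusted p = 0.00171), and GCGCGC was in 3.77%, against 9.67% (Fisher's exact adjusted p = 0.00257). With replicate 4 alone, TATAAA differed by 5.10 points, in place of 10.8, and GCGCGC by -2.37 points, in place of -5.90, and neither passed (Fisher's exact adjusted p = 0.139 and 0.495). The windows also differed in base composition, with 41.6% guanine and cytosine in the intergenic summits and 45.3% in the 5′ UTR summits, whose part in these differences was not tested. In the 5′ UTR class 76.8% of summits lay within 100 bp of a start site, against 49.4% of the intergenic ones. Its windows thus reached a start site more often by position alone, and the part of this in the initiator and TATAAA differences was not tested. CACGTG was in 7.74%, against 4.07%, a difference that did not pass (Fisher's exact adjusted p = 0.109). Among the strongest 50% of peaks only CACGCG still differed, with TATAAA at an adjusted p of 0.0689 and the initiator and GCGCGC both at 0.401 (Fisher's exact tests).

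Against the 2551 candidates below the threshold, again 4 of 22 (18.2%) differed. CACGTG was in 7.74% of the thresholded summits, against 2.98% of the candidates (Fisher's exact adjusted p = 8.94e-05), GGCACGTG was in 1.98%, against 0.353% (Fisher's exact adjusted p = 0.00337), and CACNAG was in 26.8%, against 20.5% (Fisher's exact adjusted p = 0.0148). Motif 1 was in 1.98%, against 4.66% (Fisher's exact adjusted p = 0.0273). The DRE was in 7.54%, against 7.41%, a difference of 0.131 points (Fisher's exact adjusted p = 1). With the strongest candidates of replicate 4 alone, equal in number, in place of the thresholded list 2 motifs differed, and with those of replicate 3 alone none did, CACGTG then gaining 2.44 points (Fisher's exact adjusted p = 0.0803).

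Genes were counted when theirs was the nearest start site of a summit or either start site of a divergent one, which gave 667 of 13945 protein-coding genes (4.78%), 362 with a divergent summit as their strongest and 305 with 1 start site. Lists were described beside that share and not tested. Of 86 cytoplasmic ribosomal protein genes 24 (27.9%) had such a summit, 17 of them divergent, led by RpL13A at a signal of 532, RpL14 at 493 and RpL34b at 460. Of 25 summits at these genes, 13 held CGATA, 5 the DRE and 4 CACGTG, and none held GAGAGAG or CAGCTG. Over all 504 summits the shares were 35.5% for CGATA, 7.54% for the DRE, 7.74% for CACGTG, 9.13% for GAGAGAG and 16.1% for CAGCTG. Of 75 mitochondrial ribosomal protein genes 7 (9.33%) had one, all 7 divergent, led by mRpS10, mRpL41 and mRpS23. Of 53 translation factor genes 8 (15.1%) had one, 6 of them divergent. Most of their summits thus lay between head-to-head genes, and the partner gene is counted with no evidence of which one the signal belongs to. Thresholded summits of any position class were at 65 of the 86 cytoplasmic ribosomal protein genes, against 1653 of all 13945 protein-coding genes.

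Lists of developmental genes held few divergent summits. All 7 bHLH genes of the complex had a summit, with E(spl)mdelta-HLH the only one whose strongest was divergent, and 5 of 8 Bearded family genes had one, none divergent. Of 36 neurogenesis genes 7 (19.4%) had one, none divergent: insc, an adaptor of neuroblast polarity, at a signal of 263, ato, a proneural bHLH activator, at 245, wor, a neuroblast zinc finger factor, at 233, and below them esg, sna, vnd and sens. Of the 7 summits at these neurogenesis genes, 4 held CACGTG, 2 GAGAGAG, 2 CGATA, 2 CAGCTG and 1 the DRE. Of the 12 at bHLH genes of the complex, 2 held CACGTG, 2 GAGAGAG, 2 CGATA, 2 CAGCTG and none the DRE. Of the 10 at Bearded family genes, 3 held CACGTG, 1 CGATA, 1 CAGCTG and none GAGAGAG or the DRE. Of 30 segmentation genes 5 (16.7%) had one, none divergent: ptc, the Hedgehog receptor, at 263, nkd, a Wingless antagonist, at 195, and bcd, hh and slp1 below 120. Of 24 Notch pathway genes 2 had one, aph-1, of the gamma-secretase complex, and gro, which encodes Groucho. The symbols Dl and nct of that list did not match the annotation, so these genes were not examined.

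Other broadly expressed lists were mixed. Of 37 chromatin regulator genes 6 (16.2%) had one, led by Cp190, an insulator protein, at 428, and brm, the Brahma complex ATPase, at 326. The summit between Arl1 and brm stood at 270 in replicate 3 and at 63.9 in replicate 4. Of 35 chaperone genes 4 (11.4%) had one, among them Hsc70-3, Hsp27 and Hsp68. Of 86 oxidative phosphorylation genes 3 had one, ND-51, COX7B and ND-42; of 33 V-ATPase genes 2, Vha16-1 and Vha68-2; of 31 cell cycle genes 1, CycB3; and of 18 aminoacyl-tRNA synthetase genes 1, GluProRS. None of 48 proteasome, 32 splicing, 120 odorant and gustatory receptor and 15 eggshell genes had one.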

How the data were processed

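Per the text files deposited with the samples, the authors' candidate peaks came from each replicate's alignment, and from both together, with 1 control alignment, and they derived the thresholded list from the 3 candidate lists by an irreproducible discovery rate procedure, on dm6. The deposited signal value of each peak was used to rank and describe peaks within a list. The deposited −log10 q values were not used in any result. Aligner, caller, threshold and depth: not given in the sources used here. Intervals cover counting error only. The thresholded list equalled the same number of pooled candidates of highest signal, of 30000 in each candidate list.

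A summit was the peak start plus the summit offset, in 1-based coordinates. Gene spans and start sites came from Ensembl release 115 of the same assembly, and sequence from RefSeq's, after chromosome lengths had been compared. Windows of 100 bp to each side were searched on both strands. Candidates below the threshold lay over 200 bp from any thresholded summit. Motifs and hexamers were compared with two-sided exact McNemar and Fisher's exact tests, Benjamini-Hochberg adjusted within each family, treating regions as independent; intervals are 95% Wilson intervals. Python 3.11.15, numpy 2.4.6, pandas 2.3.3, scipy 1.17.1 and matplotlib 3.10.9 were used. The tests were tested on simulated data.

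The summits and the 18 gene lists were chosen with earlier results of these data known. In the lists 7 symbols were not matched to the annotation and not counted: wee, Z4, BobB, BobC, Dl, nct and dec-1. Named genes are the nearest genes of the 20 strongest summits, both genes of the 10 strongest divergent ones and up to 3 genes of each list with the strongest summits; others, such as the lower genes of lists with few summits, were named after their values had been seen. Alternatives were other distance limits, the strongest 50% of peaks, each replicate alone, 1 summit per interval, start sites of any gene type, windows of 50 bp to each side, the other flank and matching within 50 bp. Flanks outside genes and leaving out the Enhancer of split complex were added after seeing the data.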

Additional observations from a re-analysis of the deposited data

How the results depend on the processing

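With start sites within 500 bp, 1 motif differed between divergent summits and those with 1 start site, and with 2000 bp 5 did, against 3 at 1000 bp; 1 did without the Enhancer of split complex. Among the strongest 50% of peaks there were 244 summits, 16 hexamers differed from the flank, 1 motif from 5′ UTR summits and 2 from candidates below the threshold, and the divergent summits' difference in replicate overlap was -9.49 points (Fisher's exact p = 0.069); it was -8.94 points with matching within 50 bp (Fisher's exact p = 0.0625). In windows of 50 bp to each side, 14 hexamers and 2 motifs against candidates below the threshold differed. With the flank on the side of the start site 309 hexamers differed, and with flanks outside genes 4 motifs did, against 7. Shorter windows and lists of fewer summits hold fewer matches; for the other settings the cause was not tested. With each replicate alone, the lowest and highest values were 452 and 583 summits, 34.3% and 41.2% divergent, 85 and 223 hexamers, 7 and 10 motifs against the flank, 4 and 7 between divergent summits and the others, 3 and 4 against 5′ UTR summits, and 0 and 2 against candidates below the threshold. For single motifs, 164 alternative values kept their direction and side of the threshold, 24 kept the direction but lost the call, 2 gained a call and 11 turned round, none of these past the threshold in either setting. CACNAG against the flank turned to -2.46 points among the strongest 50% of peaks, -1.37 without replicate 4 (3.32 without replicate 3) and -1.19 with the other flank. CACGTG in divergent summits against the others turned to -0.00667 within 500 bp, -0.414 without replicate 4 (1.29 without replicate 3) and -3.66 in the shorter windows. Against candidates below the threshold, the DRE turned to -0.663 within 500 bp, -1.38 among the strongest 50%, -0.214 with 1 summit per interval and -0.341 in the shorter windows, and CACGCG to -0.3 without replicate 4 (1.69 without replicate 3). No paired analysis was possible because both replicates belong to 1 group. Depth is unknown, signal scales are not stated, and regions of 1 interval or shared flanks are not independent.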

Other observations

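A 9-base word recurred in the strongest summits outside the Enhancer of split complex. It was noticed in the printed windows after their values had been seen, so it is given as counts with no test. TGGGCGTAG, on either strand, was in 4 of the 20 strongest intergenic summits close to coding start sites, at CG14100, Ugalt, Tcs5 and CG5611, and in 2 of the other 484, at Hpf1 and Rubicon. It was in none of the 504 flanks, in 9 of all thresholded windows (0.362%), in 27 of 27513 pooled candidates below the threshold (0.0981%) and in 12 of 10663 windows of coding promoters (0.113%). The word and 10 bases on each side, on dm6 and with the word in capitals, are printed for the 4 strongest.
CG14100, chr3L:19590670-19590698, minus strand: actgcttgcaTGGGCGTAGtgaagtttct
Ugalt, chrX:2703953-2703981, minus strand: ctgcacgccaTGGGCGTAGcttgctttaa
Tcs5, chr3L:5139557-5139585, minus strand: aatgaaatcaTGGGCGTAGatggtaagtt
CG5611, chr3R:27636068-27636096, plus strand: ataggcagcaTGGGCGTAGtcgatagcaa
In these 4 windows the middle of the word lay 70, 83, 69 and 78 bp from the summit. The 2 bases before the word were CA in each.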
